A study of Mus musculus with 15 samples.

Results

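The 48 genes described here encode the core machinery of DNA replication and the transcription factors, cyclins and enzymes that act in S phase. They were taken from a list of gene symbols that was chosen with earlier results of these data known. Each was looked up by Ensembl gene ID in a table of raw read counts for 43432 genes, and all 48 were found and tested. The table covers 15 libraries of polyA RNA from mouse embryonic fibroblasts (MEFs), primary cells grown in DMEM with fetal bovine serum. Groups of 3 libraries, lettered a, b and c, hold cells at day 13 with a lentivirus for Neurog3 (labelled Ngn3), cells at day 13 with one for Neurog1 (labelled Ngn1), the same infections at day 1, and controls. Neurog1 and Neurog3 are proneural bHLH transcription factors. Doxycycline started their expression on day 0, and the fibroblast medium was replaced on day 2 by a neuronal one (DMEM/F12 with N2 and B27). The day after induction and the medium therefore cannot be told apart in any comparison with day 13. For the controls the labels say no more than control, and whether they carry a virus, their medium and their age in culture are not stated there. No label says that libraries a, b and c come from separate cultures. The p-values thus measure only how these libraries spread, which may be technical.

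Before S phase, the origin recognition complex, Cdc6 and Cdt1 load rings of the Mcm proteins onto DNA, and Cdc45 and the GINS complex then turn each ring into a working helicase. Polymerases copy the strands behind it, held by the Pcna clamp and fed by enzymes that make deoxynucleotides. Most of these genes are switched on late in G1 by E2F factors and are low in cells that have left the cycle, as neurons have.

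The libraries held 14869015 to 17859844 counts, of which the 48 genes took 0.123% to 0.451%. Neurog3 was at 1242 to 5264 CPM in the 6 Neurog3 libraries and at most 0.866 CPM in the other 9. Neurog1 was at 1083 to 4068 CPM in the 6 Neurog1 libraries and at most 0.645 CPM elsewhere. Every library thus matches its label for the factor. Levels at day 1 and day 13 overlapped for both factors, so these values do not check the day. Levels here are CPM, counts scaled to a common library total, after edgeR's TMM factors, and values of 3 libraries are given in the order a, b, c. The tests are edgeR's quasi-likelihood tests over 16872 genes, and genes with a Benjamini-Hochberg adjusted p under 0.05 are called here. Log2 fold changes carry their standard error. All 10 fibroblast markers were detected in each control library, with a summed level of 7887 to 10817 CPM. That sum was 7154 to 25600.2 CPM in Neurog3 cells and 7254 to 27707 CPM in Neurog1 cells at day 13, with library c the lowest of each. At day 1 it was 3855 to 6448 CPM in Neurog3 cells and 4360 to 6396 CPM in Neurog1 cells, below every control library. The 8 neuron markers all rose at day 13 against control with both factors, and their values by library are given with the mitosis genes at the end. In bulk RNA, fewer cells of a type and less RNA per cell cannot be told apart.

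At day 13 nearly all of the replication genes were lower than in control. With Neurog3, 43 of 48 fell and 0 rose, and with Neurog1, 42 fell and 1, E2f1, rose. Of all genes tested, 26.4% fell and 31.2% rose with Neurog3, and 26.8% fell and 32.6% rose with Neurog1. The drop was at least 2-fold for 35 of the 48 genes with each factor, against 18% of all genes with Neurog3 and 18% with Neurog1. All 3 day 13 libraries lay below all 3 controls for 41 genes with Neurog3 and 40 with Neurog1, against 28.9% and 29.8% of all genes. The median log2 fold change of the 48 genes was -1.40 with Neurog3 and -1.51 with Neurog1, where that of all genes was 0.10 and 0.10. Scaled by library totals instead of TMM, the median of all genes was 0.40 for each factor, and higher genes made up 67.5% (Neurog3) and 67.3% (Neurog1) of the genes called, against 54.1% and 54.9% with TMM. On that scale 38 of the 48 fell with Neurog3 and 39 with Neurog1, against 3211 and 3285 of the 16872 genes tested. Summed over the 48 genes, the level was 1379 ± 297 CPM in Neurog3 cells and 1376 ± 422 CPM in Neurog1 cells at day 13, 4162 ± 812 CPM in Neurog3 cells and 4276 ± 489 CPM in Neurog1 cells at day 1, and 4042 ± 861 CPM in controls (SD, n = 3 each). Rrm2, Gmnn, Orc1, Gins2 and Cdc6 fell most, by 6.2- to 9.13-fold over both factors. Without control a, Rrm2 was 5.25-fold (Neurog3) and 4.91-fold (Neurog1) lower and no longer first, and Gmnn led at 8.51-fold and 7.71-fold.

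**Figure D1:**
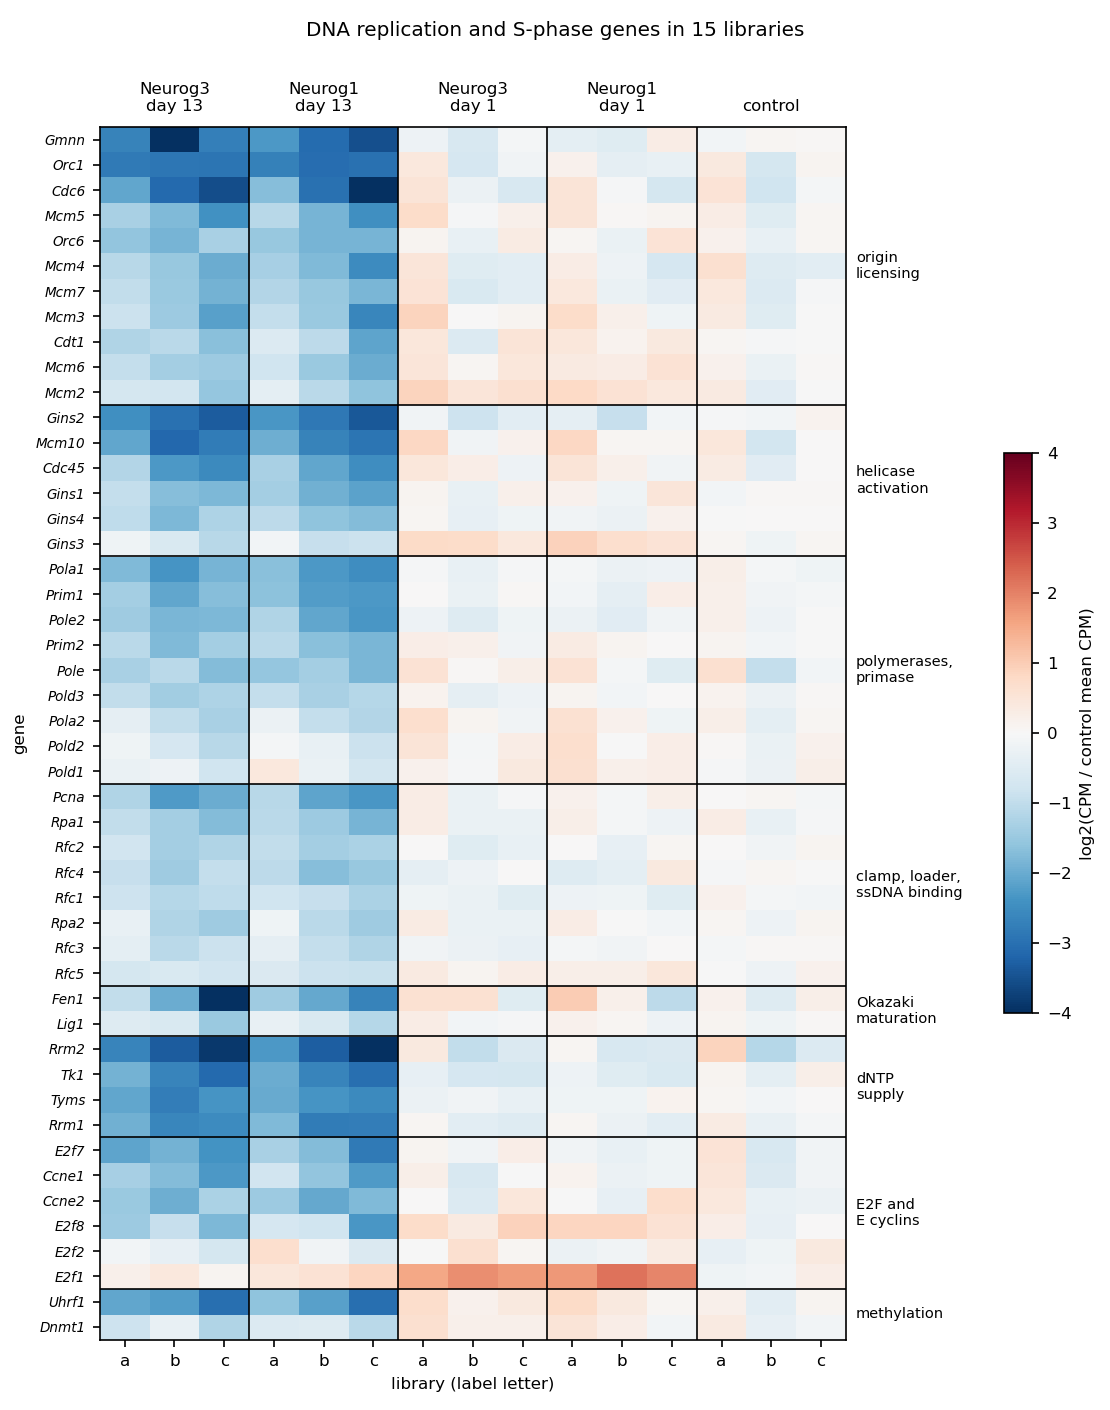
Level of each of the 48 genes in each library, as the log2 ratio of its CPM to the control mean of the same gene (colour, cut at -4 and 4). Rows are genes ordered by role and columns are libraries a, b and c of Neurog3 and Neurog1 at day 13, Neurog3 and Neurog1 at day 1 and control. The day 13 columns are low for all but a few rows, and the E2f1 row is high at day 1.

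Against day 1 of the same factor the picture was much the same. With Neurog3, 46 of 48 genes fell (38 of them at least 2-fold), against 26.8% of all genes (17.8% at least 2-fold). With Neurog1, 46 fell (39 at least 2-fold), against 27.3% of all genes (18.3% at least 2-fold). The day 13 libraries lay below the day 1 libraries for all 48 genes with Neurog3 and for 46 with Neurog1, where all genes gave 28.5% and 31.2%. Higher genes made up 63.1% (Neurog3) and 65.4% (Neurog1) of all called genes on library totals, against 51.9% and 52.9% with TMM. On library totals 44 and 42 of the 48 fell, against 3459 and 3411 of the 16872 genes tested. Pold1 and E2f2 were not called in either. In all, 42 genes were called lower in each of the 4 comparisons with day 13. The other 6 were Gins3, Pola2, Pold1, Pold2, E2f1 and E2f2. In 33 genes the drop was at least 2-fold in all 4 comparisons, and in 9 it was at least 4-fold (Orc1, Cdc6, Gmnn, Gins2, Mcm10, Rrm1, Rrm2, Tyms and Uhrf1). The shares of all genes that meet these rules in all 4 comparisons were not computed, and the 4 comparisons share libraries.

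Sequences upstream of the listed starts of these genes were read because so many members moved together and because E2F factors, some of them members, bind a known motif. The RefSeq promoter table (GRCm38.p6) matched 39 of the 48 genes by symbol; Gins2, Rfc2, Mcm4, Gins1, Prim2, Ccne2, Gins4, Pole and Gmnn were not matched. The E2F motif was searched as the words TTTCCCGC, TTTCGCGC, TTTGCCGC and TTTGGCGC on both strands. In the 250 bases before a start, 11 of the 39 genes (28.2%) held a match, against 2.16% of the 27025 genes in the table. These were Cdc6, Dnmt1, E2f7, Gins3, Mcm5, Mcm6, Mcm7, Orc1, Pola1, Rfc3 and Uhrf1. The windows of 60 bases below lie around the first match in 6 of them, and were chosen because they hold no annotated exon base; matches are in capitals, and the strand shown is that of the gene. A match is a string of letters and not evidence of binding.
Cdc6: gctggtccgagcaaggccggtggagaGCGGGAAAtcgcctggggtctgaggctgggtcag
E2f7: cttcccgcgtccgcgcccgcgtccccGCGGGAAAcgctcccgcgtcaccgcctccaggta
Mcm5: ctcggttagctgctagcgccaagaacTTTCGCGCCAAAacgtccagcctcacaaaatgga
Mcm6: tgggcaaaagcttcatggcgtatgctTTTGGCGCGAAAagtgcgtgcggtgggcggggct
Pola1: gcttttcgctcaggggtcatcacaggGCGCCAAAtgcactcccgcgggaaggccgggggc
Uhrf1: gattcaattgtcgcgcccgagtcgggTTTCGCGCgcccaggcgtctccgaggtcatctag
They lie at chr11:98907987-98908046 (plus strand) for Cdc6, chr10:110745215-110745274 (plus strand) for E2f7, chr8:75109330-75109389 (plus strand) for Mcm5, chr1:128359782-128359841 (minus strand) for Mcm6, chrX:93632260-93632319 (minus strand) for Pola1 and chr17:56304102-56304161 (plus strand) for Uhrf1. Counting the base just before the start as -1, the first base of the match is at -138 in Cdc6 and Pola1, -198 in E2f7, -153 in Mcm5, -110 in Mcm6 and -185 in Uhrf1, from the later of the starts listed for it. The Cdc6 and Uhrf1 starts used are starts of annotated transcripts (GENCODE M21) that lie 350 and 992 bases inside the gene, so their windows lie inside the gene too. The Dnmt1 and Mcm7 matches counted above also lie inside the gene, before starts 7265 and 539 bases into it. In Mcm5 and Mcm6 a pair of matches on opposite strands overlap in 1 longer run.

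The medians of genes with and without a match both lay below control at day 13. With Neurog3 the median log2 fold change was -1.75 for the 11 with a match (-2.88 to -0.58) and -1.33 for the 28 without (-3.19 to 0.26). With Neurog1 it was -1.71 with a match (-2.90 to -0.58) and -1.40 without (-3.09 to 0.65). CCAAT, the NF-Y motif, was in 64.1% of the 39 genes and 37.5% of all genes, and TTTGAA, the core of the cell cycle genes homology region, in 20.5% and 18.3%. The E-box words CAGATG (or CATCTG) and CAGCTG, of the kind bHLH factors bind, were in 7.69% and 5.13% of the 39 genes, against 16.3% and 14.7% of all genes.

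Origin licensing was the role with most members. All 11 genes fell with both factors at day 13 against control, with median log2 fold changes of -1.50 (Neurog3) and -1.71 (Neurog1). Their summed level was 381 ± 93.2 CPM in Neurog3 cells and 358 ± 135 CPM in Neurog1 cells at day 13, 1203 ± 300.004 CPM in Neurog3 cells and 1206 ± 169 CPM in Neurog1 cells at day 1, and 1053 ± 269 CPM in controls. Mcm6 (ENSMUSG00000026355, chr1:128331590-128359664, minus strand, mm10) is a subunit of the helicase ring. Mcm6 had 128, 95.4 and 89.1 CPM in Neurog3 cells and 143, 87.8 and 61.5 CPM in Neurog1 cells at day 13. Mcm6 at day 1 had 343, 258 and 339 CPM in Neurog3 cells and 319, 301 and 365 CPM in Neurog1 cells, and the controls had 279, 205 and 254 CPM. All 6 day 13 libraries lay below every day 1 and control library. For Mcm6 the log2 fold change against control was -1.24 ± 0.26 (adjusted p = 0.0009) with Neurog3 and -1.34 ± 0.26 (adjusted p = 0.000487) with Neurog1. Mcm6 against day 1 was at -1.59 ± 0.26 (adjusted p = 0.000142) with Neurog3 and -1.75 ± 0.27 (adjusted p = 5.71e-05) with Neurog1. Gmnn (ENSMUSG00000006715, chr13:24751845-24761923, minus strand) encodes geminin, the inhibitor that keeps Cdt1 from loading Mcm rings again. Gmnn had 6.39, 2.47 and 6.18 CPM in Neurog3 cells and 8.25, 4.84 and 3.59 CPM in Neurog1 cells at day 13. Gmnn at day 1 had 35.3, 26 and 38.8 CPM in Neurog3 cells and 31.4, 29.2 and 50.5 CPM in Neurog1 cells, and the controls had 38, 42.7 and 41.8 CPM. No day 13 library came near the others. Gmnn was 8.14-fold lower than control with Neurog3 and 7.35-fold lower with Neurog1, and 6.65-fold and 6.67-fold lower than at day 1, all 4 of them called. Orc1 (ENSMUSG00000028587, chr4:108579423-108614833, plus strand) is the largest subunit of the origin recognition complex. Orc1 had 3.22, 3.12 and 3.03 CPM in Neurog3 cells and 3.53, 2.78 and 2.93 CPM in Neurog1 cells at day 13. Orc1 at day 1 had 30.8, 14.4 and 20.8 CPM in Neurog3 cells and 26.1, 17.8 and 18.9 CPM in Neurog1 cells, and the controls had 30.3, 14.1 and 24.9 CPM. The 6 day 13 libraries were nearly equal and lay below all others, among which day 1 and control overlapped. For Orc1 the log2 fold change against control was -2.88 ± 0.33 (adjusted p = 3.8e-06) with Neurog3 and -2.90 ± 0.33 (adjusted p = 3.52e-06) with Neurog1. Orc1 against day 1 was at -2.81 ± 0.33 (adjusted p = 6.31e-06) with Neurog3 and -2.76 ± 0.32 (adjusted p = 6.23e-06) with Neurog1. About 10.8% of the Orc1 exon bases are shared with another gene.

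Mcm2, another ring subunit, fell least of the role against control. Mcm2 had 47.9, 46.9 and 26.4 CPM in Neurog3 cells and 59.9, 37.1 and 25.5 CPM in Neurog1 cells at day 13. Mcm2 at day 1 had 144, 108 and 120.2 CPM in Neurog3 cells and 134, 116 and 105 CPM in Neurog1 cells, and the controls had 99.4, 56.6 and 77.1 CPM. Library a of Neurog1 at day 13 overlapped the lowest control, while all day 1 libraries lay above all controls. For Mcm2 the log2 fold change against control was -0.94 ± 0.30 (adjusted p = 0.0133) with Neurog3 and -0.93 ± 0.30 (adjusted p = 0.0141) with Neurog1. Mcm2 against day 1 was at -1.62 ± 0.30 (adjusted p = 0.000373) with Neurog3 and -1.54 ± 0.30 (adjusted p = 0.000514) with Neurog1. Mcm2 lost its call against control with Neurog3 without control a (0.0666) or Neurog3 day 13 c (0.0592), and against control with Neurog1 without control a (0.0691) or Neurog1 day 13 c (0.0698) (adjusted p when that library is left out). The other ring genes Mcm3, Mcm4, Mcm5 and Mcm7 had log2 fold changes of -1.80 to -1.40 against control, and the loaders Cdc6 and Cdt1 -2.77 to -1.10. Without library a of Neurog1 at day 13, Cdc6 was 11.2-fold lower than control and 11.1-fold lower than at day 1 with Neurog1. Orc6, a small subunit of the origin complex, was at -1.56 ± 0.24 (adjusted p = 5.77e-05) with Neurog3 and -1.73 ± 0.24 (adjusted p = 2.25e-05) with Neurog1.

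Of the 6 genes that make the helicase active, 5 fell with each factor against control, and all 6 fell against day 1. Their summed level was 63.5 ± 20.6 CPM in Neurog3 cells and 61.1 ± 20.3 CPM in Neurog1 cells at day 13, 226 ± 42 CPM in Neurog3 cells and 235 ± 32.1 CPM in Neurog1 cells at day 1, and 222 ± 26.9 CPM in controls. Gins4 is a subunit of the GINS complex. Gins4 had 26.1, 15.1 and 22.1 CPM in Neurog3 cells and 25.6, 17.1 and 15.8 CPM in Neurog1 cells at day 13. Gins4 at day 1 had 54.9, 41.3 and 46.6 CPM in Neurog3 cells and 47.6, 44.3 and 58.9 CPM in Neurog1 cells, and the controls had 51.4, 52.5 and 53.1 CPM. The day 13 libraries reached at most 26.1 CPM and the others began at 41.3 CPM. Against control the drop in Gins4 was 2.48-fold with Neurog3 and 2.69-fold with Neurog1, and against day 1 it was 2.26-fold and 2.58-fold. All 4 were called. Gins2 (ENSMUSG00000031821, chr8:120578633-120589304, minus strand) encodes another GINS subunit and fell most against control. Gins2 had 10.2, 7.09 and 5.56 CPM in Neurog3 cells and 11.2, 7.68 and 5.26 CPM in Neurog1 cells at day 13. Gins2 at day 1 had 50.8, 31.1 and 41.5 CPM in Neurog3 cells and 43.7, 29.6 and 51.6 CPM in Neurog1 cells, and the controls had 53.9, 51.3 and 61.8 CPM. Day 13 and the other groups were far apart in every library. For Gins2 the log2 fold change against control was -2.87 ± 0.31 (adjusted p = 2.7e-06) with Neurog3 and -2.79 ± 0.31 (adjusted p = 3.25e-06) with Neurog1. Gins2 against day 1 was at -2.43 ± 0.31 (adjusted p = 1.33e-05) with Neurog3 and -2.37 ± 0.31 (adjusted p = 1.42e-05) with Neurog1. Exons of other genes on either strand cover 67.3% of the Gins2 exon bases. Gse1 and Gm20388 overlap Gins2, so reads in shared exons could have been added to its counts or lost from them. Over all libraries Gse1 took 19201 counts and Gm20388 took 0, against 7372 for Gins2. Gins3, which belongs to the same complex, was not called against control. Gins3 had 11.6, 8.59 and 6.01 CPM in Neurog3 cells and 12.1, 6.96 and 7.23 CPM in Neurog1 cells at day 13. Gins3 at day 1 had 22.3, 21.8 and 17.4 CPM in Neurog3 cells and 24.5, 21 and 19.3 CPM in Neurog1 cells, and the controls had 13.9, 11.5 and 13.8 CPM. Day 13 and control libraries overlapped, and all day 1 libraries were above all controls. For Gins3 the log2 fold change against control was -0.58 ± 0.27 (adjusted p = 0.0729) with Neurog3 and -0.58 ± 0.27 (adjusted p = 0.0741) with Neurog1. Gins3 against day 1 was at -1.23 ± 0.27 (adjusted p = 0.00127) with Neurog3 and -1.30 ± 0.27 (adjusted p = 0.000771) with Neurog1. Gins3 was called against control with Neurog3 without Neurog3 day 13 a (0.0208), and against control with Neurog1 without Neurog1 day 13 a (0.0115) (adjusted p when that library is left out). With the replicate letter as a block it was called with both factors (adjusted p = 0.0204 with Neurog3 and 0.0208 with Neurog1). Cdc45 and Gins1 fell by 2.69- to 3.66-fold and Mcm10, which helps to fire the helicase, by 6.03-fold with Neurog3 and 5.47-fold with Neurog1.

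**Figure D2:**
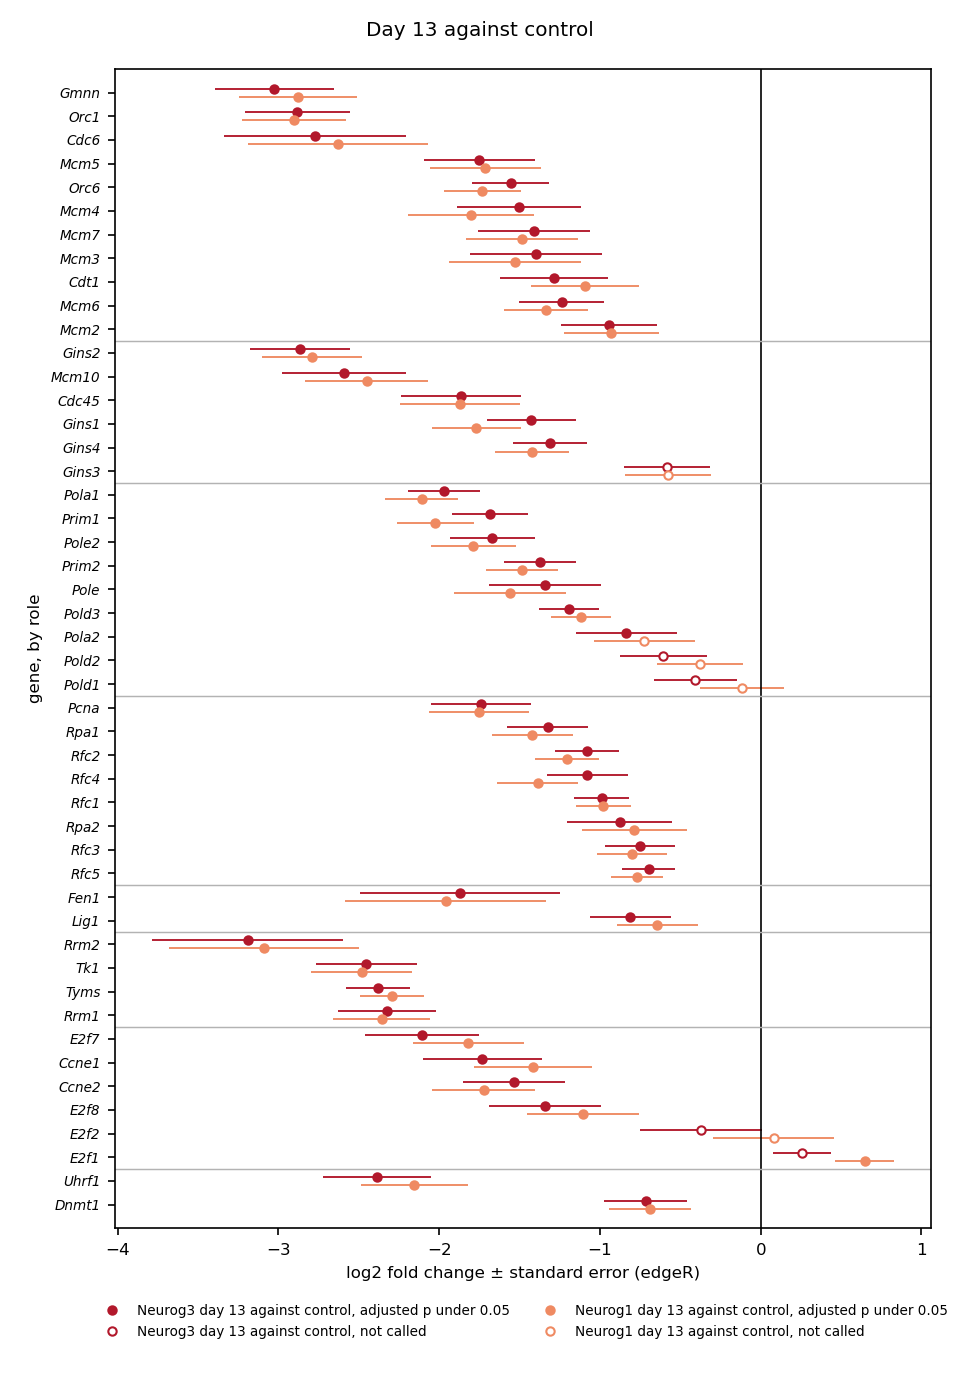
Log2 fold change of each of the 48 genes at day 13 against control, with its standard error, for Neurog3 and Neurog1. Genes run by role, and a filled point marks an adjusted p under 0.05. Nearly all points lie left of 0, Rrm2 is the lowest, and E2f1 lies to the right with both factors but is filled only for Neurog1.

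The 9 polymerase and primase genes split. Against control, 7 fell with Neurog3 and 6 with Neurog1, with medians of -1.34 and -1.48. Their summed level was 177 ± 31.3 CPM in Neurog3 cells and 180.3 ± 49.8 CPM in Neurog1 cells at day 13, 434 ± 53.4 CPM in Neurog3 cells and 439 ± 57.9 CPM in Neurog1 cells at day 1, and 419.7 ± 65.1 CPM in controls. Pola1 (ENSMUSG00000006678, chrX:93304767-93632155, minus strand), the catalytic subunit of the polymerase that starts each new strand, fell most against control. Pola1 had 24.2, 16.2 and 23 CPM in Neurog3 cells and 26, 16.7 and 14.9 CPM in Neurog1 cells at day 13. Pola1 at day 1 had 80.3, 67.3 and 80.1 CPM in Neurog3 cells and 79.2, 70.6 and 72.7 CPM in Neurog1 cells, and the controls had 96.9, 78 and 73.6 CPM. All 6 day 13 libraries were below all others. For Pola1 the log2 fold change against control was -1.97 ± 0.22 (adjusted p = 3.81e-06) with Neurog3 and -2.11 ± 0.22 (adjusted p = 2.18e-06) with Neurog1. Pola1 against day 1 was at -1.85 ± 0.22 (adjusted p = 8.84e-06) with Neurog3 and -1.95 ± 0.22 (adjusted p = 5e-06) with Neurog1. Prim1 and Prim2, the primase subunits that work with it, fell by 2.59- to 4.07-fold over both factors. Pola2, the regulatory subunit of the same enzyme, gave a weaker contrast. Pola2 had 25.7, 16.9 and 13.4 CPM in Neurog3 cells and 28.5, 17.2 and 14.9 CPM in Neurog1 cells at day 13. Pola2 at day 1 had 53.5, 35.8 and 30.4 CPM in Neurog3 cells and 51, 37.3 and 29.6 CPM in Neurog1 cells, and the controls had 39.5, 25.3 and 35.1 CPM. Library a of each factor at day 13 overlapped the lowest control. For Pola2 the log2 fold change against control was -0.84 ± 0.31 (adjusted p = 0.0327) with Neurog3 and -0.72 ± 0.31 (adjusted p = 0.0583) with Neurog1. Pola2 against day 1 was at -1.10 ± 0.32 (adjusted p = 0.00824) with Neurog3 and -0.96 ± 0.31 (adjusted p = 0.0159) with Neurog1. The call against control with Neurog3 was lost without control a, control c, or Neurog3 day 13 b or c (adjusted p 0.0719 to 0.119). With Neurog1 it was gained without control b (0.0352) or Neurog1 day 13 a (0.0137), and with the replicate letter as a block (0.00186). Against day 1 the Pola2 call was lost without day 1 library a (0.0522 with Neurog3, 0.0837 with Neurog1) and without Neurog1 day 13 b (0.0622) or c (0.0714).

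Pold1 (ENSMUSG00000038644, chr7:44532746-44548849, minus strand), the catalytic subunit of the lagging strand polymerase, was called in none of the 9 comparisons, though a fit with the replicate letter as a block called it against day 1 with Neurog3 (adjusted p = 0.0472). Pold1 had 33.1, 34.3 and 22.8 CPM in Neurog3 cells and 53, 33.1 and 24.2 CPM in Neurog1 cells at day 13. Pold1 at day 1 had 44.9, 38.3 and 52 CPM in Neurog3 cells and 61.5, 45.4 and 47.8 CPM in Neurog1 cells, and the controls had 38.9, 33.8 and 46.7 CPM. Each of the 4 infected groups overlapped control, and library a of Neurog1 at day 13 lay above it. For Pold1 the log2 fold change against control was -0.41 ± 0.26 (adjusted p = 0.194) with Neurog3 and -0.12 ± 0.26 (adjusted p = 0.719) with Neurog1. Pold1 against day 1 was at -0.58 ± 0.26 (adjusted p = 0.068) with Neurog3 and -0.49 ± 0.26 (adjusted p = 0.118) with Neurog1. Scaled by library totals its value against control with Neurog1 turned to 0.16 (adjusted p = 0.566). Pold1 was called against day 1 with Neurog3 without Neurog3 day 1 b (0.047), and against day 1 with Neurog1 without Neurog1 day 13 a (0.00959) (adjusted p when that library is left out). Pold2, an accessory subunit of the same polymerase, followed it in part. Pold2 had 30.3, 21.6 and 16 CPM in Neurog3 cells and 32.8, 27.9 and 18.8 CPM in Neurog1 cells at day 13. Pold2 at day 1 had 48.7, 32.9 and 42.5 CPM in Neurog3 cells and 54.6, 34 and 41 CPM in Neurog1 cells, and the controls had 35.6, 28.8 and 39 CPM. Day 13 and control overlapped, whereas within each factor day 13 lay below day 1. For Pold2 the log2 fold change against control was -0.61 ± 0.27 (adjusted p = 0.065) with Neurog3 and -0.38 ± 0.27 (adjusted p = 0.236) with Neurog1. Pold2 against day 1 was at -0.87 ± 0.27 (adjusted p = 0.0126) with Neurog3 and -0.71 ± 0.27 (adjusted p = 0.0342) with Neurog1. Pold2 lost its call against day 1 with Neurog3 without Neurog3 day 1 a (0.0551) or Neurog3 day 13 c (0.0586), and against day 1 with Neurog1 without Neurog1 day 1 a (0.16), Neurog1 day 1 c (0.0545), Neurog1 day 13 b (0.062) or Neurog1 day 13 c (0.145) (adjusted p when that library is left out). Pold2 was called against control with Neurog3 without Neurog3 day 13 a (0.0175) (adjusted p when that library is left out). The replicate block also gave a Pold2 call there (0.0179). Pold3, also of this polymerase, fell with both factors and was at -1.19 ± 0.19 (adjusted p = 7.39e-05) with Neurog3 and -1.12 ± 0.19 (adjusted p = 0.000127) with Neurog1. Pole and Pole2, of the leading strand polymerase, fell by 2.53- to 3.46-fold.

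All 8 genes of the clamp, its loader and the single-strand binding protein fell against control with both factors, with the smallest drop of the 8 roles (medians -1.03 with Neurog3 and -1.09 with Neurog1). Their summed level was 353 ± 84.1 CPM in Neurog3 cells and 341 ± 97.3 CPM in Neurog1 cells at day 13, 799 ± 129 CPM in Neurog3 cells and 847 ± 63.1 CPM in Neurog1 cells at day 1, and 839 ± 47.1 CPM in controls. Pcna (ENSMUSG00000027342, chr2:132249162-132253314, minus strand), the sliding clamp, had the highest level of all 48 genes per kilobase of exon, 36.7 CPM in Neurog3 cells and 36.4 CPM in Neurog1 cells at day 13, against 123 CPM per kilobase in controls. Pcna had 128, 60.9 and 75 CPM in Neurog3 cells and 136, 67.6 and 58.6 CPM in Neurog1 cells at day 13. Pcna at day 1 had 364, 243 and 287 CPM in Neurog3 cells and 332, 276 and 349 CPM in Neurog1 cells, and the controls had 297, 307 and 277 CPM. Library a was the highest at day 13 and still below every day 1 and control library. For Pcna the log2 fold change against control was -1.74 ± 0.31 (adjusted p = 0.000243) with Neurog3 and -1.75 ± 0.31 (adjusted p = 0.000221) with Neurog1. Pcna against day 1 was at -1.76 ± 0.31 (adjusted p = 0.000249) with Neurog3 and -1.87 ± 0.31 (adjusted p = 0.000139) with Neurog1. A Pcna pseudogene took 566 counts over all libraries, so its reads and those of Pcna may be mixed. Rfc5, a subunit of the complex that opens the clamp and loads it, fell least of the role against control. Rfc5 had 29.6, 31.7 and 28.4 CPM in Neurog3 cells and 32.3, 26.7 and 26.2 CPM in Neurog1 cells at day 13. Rfc5 at day 1 had 62.7, 51.9 and 60.1 CPM in Neurog3 cells and 56.8, 57.4 and 66.5 CPM in Neurog1 cells, and the controls had 48.1, 42.2 and 55.2 CPM. Despite the small size of the change the day 13 libraries lay below all others. With Neurog3, Rfc5 fell 1.62-fold against control and 1.95-fold against day 1, and with Neurog1 it fell 1.71-fold and 2.12-fold. The loader genes Rfc1 to Rfc4 were at -1.39 to -0.75 against control. Rfc3 against day 1 with Neurog3 was close to the threshold at -0.53 ± 0.22 (adjusted p = 0.0487), and its call was lost without any one of Neurog3 day 1 a, b and c or Neurog3 day 13 b and c (adjusted p 0.0666 to 0.172). Rpa1, which coats single-stranded DNA, was at -1.33 ± 0.25 (adjusted p = 0.000398) with Neurog3 and -1.42 ± 0.25 (adjusted p = 0.000219) with Neurog1. Its partner Rpa2 was at -0.88 ± 0.33 (adjusted p = 0.0305) with Neurog3 and -0.79 ± 0.33 (adjusted p = 0.0477) with Neurog1, and these calls or those against day 1 were lost without control a or c, library b or c of either factor at day 13, or library a of either factor at day 1 (adjusted p 0.0696 to 0.188).

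Fen1 (ENSMUSG00000024742, chr19:10199132-10204169, minus strand) and Lig1 trim and join the short fragments of the lagging strand. Both fell against control and against day 1. Fen1 had 2.45, 1.24 and 0.281 CPM in Neurog3 cells and 1.79, 1.19 and 0.759 CPM in Neurog1 cells at day 13. Fen1 at day 1 had 7.36, 7.36 and 3.48 CPM in Neurog3 cells and 9.86, 5.59 and 2.33 CPM in Neurog1 cells, and the controls had 5.43, 3.4 and 5.73 CPM. Within each factor day 13 lay below day 1, and it lay below control too. Fen1 was 3.66-fold lower than control with Neurog3 and 3.89-fold lower with Neurog1, and 4.57-fold and 4.75-fold lower than at day 1, all 4 of them called. These levels rest on 72 counts in Neurog3 and 70 counts in Neurog1 cells at day 13, against 230 counts in controls (sums of 3 libraries). Exons of other genes on either strand cover 84.2% of the Fen1 exon bases. Of the genes that overlap it, Tmem258 took 13372 counts and Gm10143 took 278 over all libraries, against 940 for Fen1. Fen1 lost its call against control with Neurog3 without Neurog3 day 13 b (0.0511) or Neurog3 day 13 c (0.054), and against control with Neurog1 without Neurog1 day 13 c (0.0555) (adjusted p when that library is left out). Without library a of Neurog3 at day 13, Fen1 was 6.4-fold lower than control and 7.94-fold lower than at day 1. Lig1 had 38.8, 36.3 and 19.7 CPM in Neurog3 cells and 45.3, 36.1 and 25.1 CPM in Neurog1 cells at day 13. Lig1 at day 1 had 67.6, 51.3 and 53.6 CPM in Neurog3 cells and 62.2, 58.1 and 48 CPM in Neurog1 cells, and the controls had 60.3, 48.7 and 57.3 CPM. All 6 day 13 libraries of Lig1 lay below the others, the nearest by a few CPM. Against control the drop in Lig1 was 1.75-fold with Neurog3 and 1.56-fold with Neurog1, and against day 1 it was 1.82-fold and 1.58-fold. All 4 were called. The Lig1 call against control was lost without Neurog3 day 13 c (0.0555) for Neurog3 and without control a or c, or Neurog1 day 13 b or c (0.0731 to 0.17) for Neurog1. Against Neurog1 day 1 it was lost without Neurog1 day 1 a or b, or Neurog1 day 13 b or c (0.0727 to 0.155).

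The enzymes that make deoxynucleotides had the lowest median log2 fold change of the 8 roles, -2.42 against control for each factor. All 4 fell. Their summed level was 176 ± 53.4 CPM in Neurog3 cells and 177 ± 77.7 CPM in Neurog1 cells at day 13, 835 ± 227 CPM in Neurog3 cells and 867 ± 154 CPM in Neurog1 cells at day 1, and 1023 ± 351 CPM in controls. Rrm1 (ENSMUSG00000030978, chr7:102441695-102469771, plus strand) is the large subunit of ribonucleotide reductase. Rrm1 had 139, 86.7 and 92.9 CPM in Neurog3 cells and 155, 77.2 and 78.7 CPM in Neurog1 cells at day 13. Rrm1 at day 1 had 559, 395 and 375 CPM in Neurog3 cells and 560.016, 448 and 399 CPM in Neurog1 cells, and the controls had 665, 431 and 501 CPM. The day 13 libraries were far below all others, and library a was the highest of each group. With Neurog3, Rrm1 fell 5.01-fold against control and 4.17-fold against day 1, and with Neurog1 it fell 5.13-fold and 4.52-fold. Rrm2 (ENSMUSG00000020649, chr12:24708241-24714146, plus strand), its small subunit, fell most of all 48 genes against control, 9.13-fold with Neurog3 and 8.52-fold with Neurog1. Rrm2 had 45.9, 27.9 and 19.3 CPM in Neurog3 cells and 58.1, 29 and 12.8 CPM in Neurog1 cells at day 13. Rrm2 at day 1 had 369, 143 and 191 CPM in Neurog3 cells and 301, 180.1 and 189 CPM in Neurog1 cells, and the controls had 527, 129 and 194 CPM. Control a stood far above control b and c, and the day 13 libraries were below all of them. Its first place rests on control a, without which it was 5.25-fold lower with Neurog3 and 4.91-fold lower with Neurog1. Without library a of Neurog1 at day 13 it was 13.8-fold lower than control and 10.8-fold lower than at day 1. For Rrm2 the log2 fold change against control was -3.19 ± 0.59 (adjusted p = 0.00033) with Neurog3 and -3.09 ± 0.59 (adjusted p = 0.000398) with Neurog1. Rrm2 against day 1 was at -2.92 ± 0.59 (adjusted p = 0.000684) with Neurog3 and -2.75 ± 0.58 (adjusted p = 0.000945) with Neurog1. Tyms (ENSMUSG00000025747, chr5:30058202-30073617, minus strand), which makes thymidylate, varied little within groups. Tyms had 21.8, 13.6 and 18.1 CPM in Neurog3 cells and 22.8, 18.2 and 15.8 CPM in Neurog1 cells at day 13. Tyms at day 1 had 79, 84.8 and 76.4 CPM in Neurog3 cells and 82.9, 82.5 and 103 CPM in Neurog1 cells, and the controls had 98, 86.3 and 94.4 CPM. Groups at day 13 and the rest were separated by a wide gap. For Tyms the log2 fold change against control was -2.38 ± 0.20 (adjusted p = 2.94e-07) with Neurog3 and -2.30 ± 0.20 (adjusted p = 3.68e-07) with Neurog1. Tyms against day 1 was at -2.16 ± 0.20 (adjusted p = 8.39e-07) with Neurog3 and -2.24 ± 0.20 (adjusted p = 5.65e-07) with Neurog1. Tk1, which salvages thymidine, was at -2.45 ± 0.31 (adjusted p = 1.19e-05) with Neurog3 and -2.48 ± 0.31 (adjusted p = 1.05e-05) with Neurog1.

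E2F factors and E cyclins did not move as one, and E2f1 went its own way. E2f1 (ENSMUSG00000027490, chr2:154559407-154569892, minus strand), an activator of S-phase genes, was the only one of the 48 called at day 1, where it was 3.28-fold higher than control with Neurog3 and 3.89-fold higher with Neurog1. E2f1 had 50.6, 59.7 and 48.2 CPM in Neurog3 cells and 61, 66.3 and 80.6 CPM in Neurog1 cells at day 13. E2f1 at day 1 had 129, 162 and 145 CPM in Neurog3 cells and 146, 201 and 169.9 CPM in Neurog1 cells, and the controls had 39, 41.1 and 52.7 CPM. The 6 day 1 libraries lay above all others. At day 13 the Neurog1 libraries were above all controls, and the Neurog3 libraries overlapped them. For E2f1 the log2 fold change against control was 0.26 ± 0.18 (adjusted p = 0.243) with Neurog3 and 0.65 ± 0.18 (adjusted p = 0.00682) with Neurog1. E2f1 against day 1 was at -1.46 ± 0.19 (adjusted p = 1.4e-05) with Neurog3 and -1.31 ± 0.18 (adjusted p = 3.01e-05) with Neurog1. Scaled by library totals, E2f1 was also called higher than control with Neurog3 at day 13 (0.55, adjusted p = 0.033). At day 1 the log2 fold change of E2f1 against control was 1.72 ± 0.19 (adjusted p = 2.41e-05) with Neurog3 and 1.96 ± 0.19 (adjusted p = 7.03e-06) with Neurog1. E2f2, a related activator, had the lowest level per kilobase of exon of the 48 genes when the 5 groups are averaged (0.433 to 0.672 CPM by group). E2f2 had 2.5, 2.15 and 1.69 CPM in Neurog3 cells and 4.37, 2.47 and 1.82 CPM in Neurog1 cells at day 13. E2f2 at day 1 had 2.71, 4.29 and 2.85 CPM in Neurog3 cells and 2.3, 2.47 and 3.4 CPM in Neurog1 cells, and the controls had 2.18, 2.43 and 3.56 CPM. The Neurog3 day 13 libraries lay below the Neurog3 day 1 libraries, and each of the 4 infected groups overlapped control. For E2f2 the log2 fold change against control was -0.37 ± 0.38 (adjusted p = 0.422) with Neurog3 and 0.08 ± 0.38 (adjusted p = 0.868) with Neurog1. E2f2 against day 1 was at -0.64 ± 0.38 (adjusted p = 0.165) with Neurog3 and 0.08 ± 0.38 (adjusted p = 0.862) with Neurog1.

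E2f7 and E2f8 are repressors of the family, and both fell. E2f7 had 4.78, 5.53 and 3.88 CPM in Neurog3 cells and 8.36, 6.13 and 2.88 CPM in Neurog1 cells at day 13. E2f7 at day 1 had 22.1, 18.5 and 24.3 CPM in Neurog3 cells and 18.6, 16.8 and 18.1 CPM in Neurog1 cells, and the controls had 29.6, 13 and 18.6 CPM. The day 13 libraries of E2f7 were all below the rest. E2f7 was 4.31-fold lower than control with Neurog3 and 3.53-fold lower with Neurog1, and 4.56-fold and 3.08-fold lower than at day 1, all 4 of them called. E2f8 had 6.61, 9.45 and 5.11 CPM in Neurog3 cells and 11.2, 10.3 and 3.54 CPM in Neurog1 cells at day 13. E2f8 at day 1 had 29.8, 23 and 34 CPM in Neurog3 cells and 32.6, 32.8 and 26.5 CPM in Neurog1 cells, and the controls had 21.6, 14.2 and 18 CPM. All day 1 libraries of E2f8 were above all controls, and all day 13 libraries below them. Against control the drop in E2f8 was 2.54-fold with Neurog3 and 2.15-fold with Neurog1, and against day 1 it was 4.09-fold and 3.68-fold. All 4 were called. E2f8 shares 11.2% of its exon bases with another gene.

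**Figure D3:**
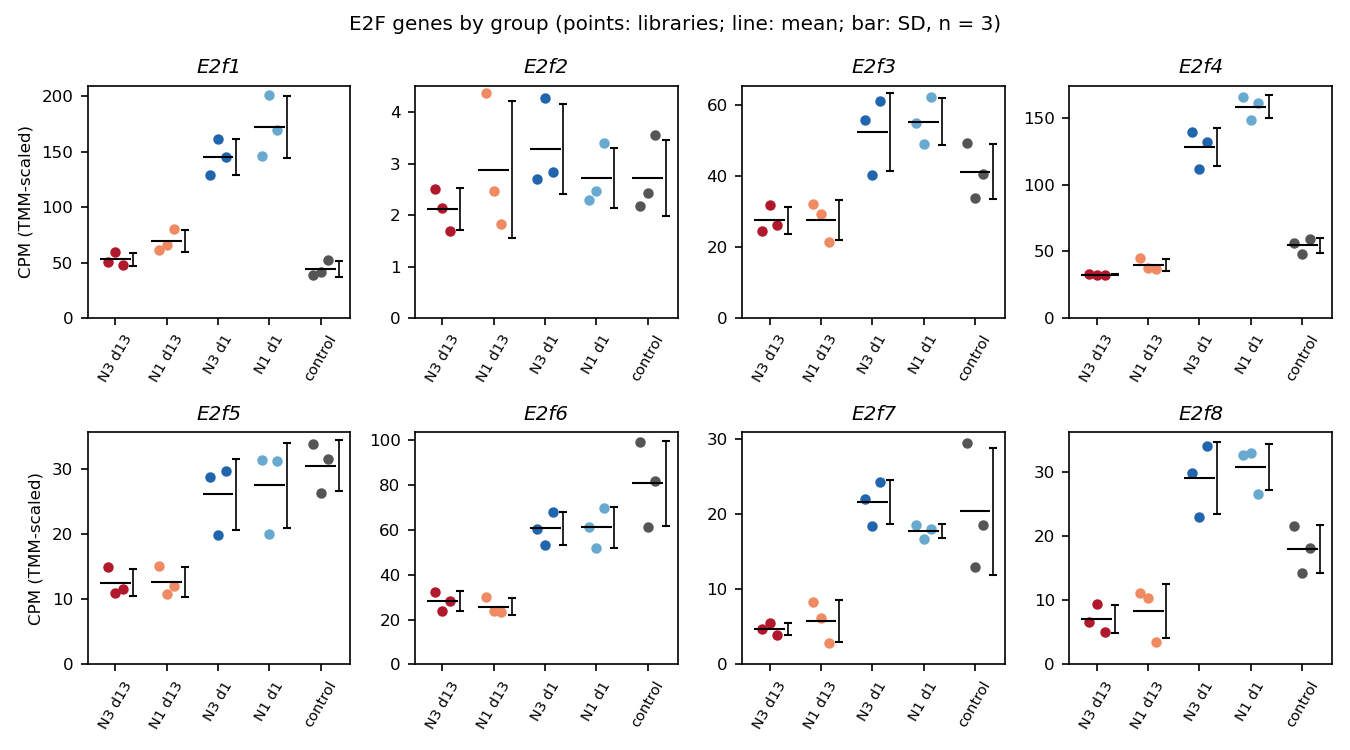
Level (CPM) of E2f1 to E2f8 in each library of Neurog3 and Neurog1 at day 13, Neurog3 and Neurog1 at day 1 and control. Points are libraries, with the mean and SD of 3. E2f1 and E2f4 peak at day 1 with both factors, while E2f7 and E2f8 are lowest at day 13.

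Ccne1 and Ccne2 encode the E cyclins that switch on Cdk2 at the start of S phase. Ccne1 had 29.7, 22.2 and 14.9 CPM in Neurog3 cells and 43.2, 24.7 and 15.3 CPM in Neurog1 cells at day 13. Ccne1 at day 1 had 87.7, 47.3 and 73.2 CPM in Neurog3 cells and 80.8, 63 and 65.3 CPM in Neurog1 cells, and the controls had 104, 50.03 and 67.8 CPM. Library a of Neurog1 at day 13 came within a few CPM of the lowest day 1 library, without overlap. With Neurog3, Ccne1 fell 3.32-fold against control and 3.11-fold against day 1, and with Neurog1 it fell 2.67-fold and 2.51-fold. Ccne2 had 21.6, 15.5 and 24.8 CPM in Neurog3 cells and 22, 14.5 and 17.6 CPM in Neurog1 cells at day 13. Ccne2 at day 1 had 59.8, 40.5 and 82.5 CPM in Neurog3 cells and 59.1, 47.5 and 97.2 CPM in Neurog1 cells, and the controls had 80.2, 48.2 and 50.7 CPM. All day 13 libraries of Ccne2 lay below the rest. Ccne2 was 2.9-fold lower than control with Neurog3 and 3.3-fold lower with Neurog1, and 2.95-fold and 3.76-fold lower than at day 1, all 4 of them called. For Ccne2, 17.4% of exon bases are shared with another gene.

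Uhrf1 (ENSMUSG00000001228, chr17:56303321-56323486, plus strand) finds hemimethylated DNA behind the fork, and Dnmt1 copies the methyl marks there. Both fell at day 13. Uhrf1 had 22.7, 20.2 and 11.7 CPM in Neurog3 cells and 31.2, 21.2 and 11.8 CPM in Neurog1 cells at day 13. Uhrf1 at day 1 had 157, 107 and 126 CPM in Neurog3 cells and 162, 124 and 101 CPM in Neurog1 cells, and the controls had 111, 71.5 and 104 CPM. The day 13 libraries of Uhrf1 were all far below the rest. For Uhrf1 the log2 fold change against control was -2.39 ± 0.33 (adjusted p = 2.78e-05) with Neurog3 and -2.16 ± 0.33 (adjusted p = 6.08e-05) with Neurog1. Uhrf1 against day 1 was at -2.83 ± 0.34 (adjusted p = 8.7e-06) with Neurog3 and -2.60 ± 0.34 (adjusted p = 1.49e-05) with Neurog1. Dnmt1 had 62.6, 90.02 and 48.3 CPM in Neurog3 cells and 74.6, 77.7 and 52.5 CPM in Neurog1 cells at day 13. Dnmt1 at day 1 had 171, 126 and 127 CPM in Neurog3 cells and 156, 132 and 102 CPM in Neurog1 cells, and the controls had 142, 86.9 and 101 CPM. For Dnmt1, library b of Neurog3 at day 13 overlapped the lowest control, and all day 13 libraries were below all day 1 libraries. Against control the drop in Dnmt1 was 1.64-fold with Neurog3 and 1.61-fold with Neurog1, and against day 1 it was 2.11-fold and 1.91-fold. All 4 were called. Dnmt1 lost its call against control with Neurog3 without control a (0.133), Neurog3 day 13 a (0.0682) or Neurog3 day 13 c (0.11), and against control with Neurog1 without control a (0.148) or Neurog1 day 13 c (0.127) (adjusted p when that library is left out).

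At day 1, when the cells were still in fibroblast medium per the labels' protocol, the replication genes were close to control. E2f1 was the 1 gene of 48 called with each factor, against 12.8% of all genes with Neurog3 and 12.2% with Neurog1. The median log2 fold change of the 48 genes was 0.02 with Neurog3 and 0.04 with Neurog1. At an unadjusted p under 0.05 there were 3 of 48 with each factor. With Neurog1, 4041 of the 16872 genes tested were under that limit, and the count of all genes with Neurog3 is not given here. With Neurog3, 4 of the 48 genes had all libraries above control (Mcm2, Gins3, E2f1 and E2f8) and 4 had all below (Gins2, Rfc1, Rfc3 and Tyms), against 15.5% and 13.3% of all genes. With Neurog1 these were 7 (the same 4 with Cdt1, Mcm6 and Rfc5) and 1 (Rfc1), against 16.5% and 13.1% of all genes. Mcm2, Gins3 and E2f8 had all 6 day 1 libraries above all controls and were not called. The share of all genes with all 6 day 1 libraries above all controls was not computed. Mcm2 was at 0.68 ± 0.30 (adjusted p = 0.159) with Neurog3 and 0.61 ± 0.30 (adjusted p = 0.228) with Neurog1. Gins3 was at 0.65 ± 0.27 (adjusted p = 0.132) with Neurog3 and 0.72 ± 0.27 (adjusted p = 0.095) with Neurog1. E2f8 was at 0.69 ± 0.34 (adjusted p = 0.219) with Neurog3 and 0.77 ± 0.34 (adjusted p = 0.173) with Neurog1. A fit with the replicate letter as a block also called Mcm2 with Neurog3 (adjusted p = 0.0451) and Gins3 with Neurog1 (0.0337), and one limited to the groups compared also called E2f8 with Neurog1 (0.0499). Each brings the count to 2 of 48. Over all 16872 genes, the block fit called 1562 higher and 1324 lower with Neurog3, and 1485 and 1275 with Neurog1. The fit limited to the groups compared called 1024 higher and 1082 lower of 14635 genes with Neurog1.

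Neurog3 and Neurog1 were compared with each other directly, and no replication gene was called between them at either day. Over all genes, in the fit without pairing, 0.0237% were called at day 13 and 0.0119% at day 1. Log2 differences of Neurog3 over Neurog1 were -0.45 to 0.34 at day 13 and -0.25 to 0.28 at day 1. At an unadjusted p under 0.05 there was 1 gene of 48 at day 13 and 0 at day 1. The 1 gene was E2f1, at -0.39 ± 0.18 (adjusted p = 0.9) for Neurog3 over Neurog1, and it was also the 1 member whose Neurog3 libraries all lay below the Neurog1 libraries at day 13, where all genes gave 5.11%. The test of whether the change between day 1 and day 13 differed between the factors called none of the 48 genes and 0% of all genes, with 0 of 48 at an unadjusted p under 0.05. DESeq2 also called 0 of the 48 in these 3 tests. For the fit without pairing, the share of all genes at an unadjusted p under 0.05 is not given here. Its unadjusted counts therefore have no background to be read against. Since libraries of the same letter deviated together between the factors within a day, the letter was also fitted as a block within each day over the 12 infected libraries, a choice made after seeing the data. This paired fit called 0 of the 48 as well, where it called 4.2% of all genes at day 13, 0.15% at day 1 and 0.18% for the interaction. At an unadjusted p under 0.05 it had 4 of the 48 at day 13 (Mcm4, Gins1, Prim1 and E2f1), 0 at day 1 and 1, Gins1, for the interaction. Of all genes, 16.9% were under that limit in the paired fit at day 13, 6.2% at day 1 and 11% for the interaction.

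Changes at day 13 against day 1, which share no library between the factors, ran in parallel. They are not independent, since same-letter libraries of the factors deviated together within a day. Across the 48 genes Pearson's r was 0.943 and Spearman's rho 0.932, given as a description since genes are not independent. The sign was the same for 47 of 48, and the median difference in size was 0.13 on the log2 scale. These figures were not computed over all genes, so the agreement is not shown to be particular to the 48. E2f2 had the largest difference, 0.72.

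**Figure D4:**
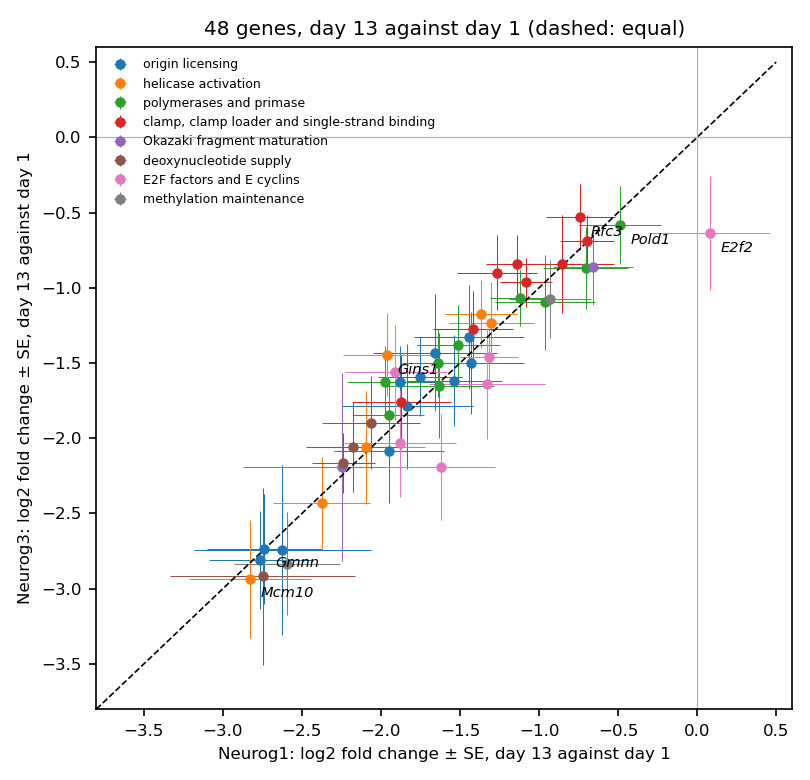
Log2 fold change of each of the 48 genes at day 13 against day 1, Neurog3 (vertical axis) against Neurog1 (horizontal axis), with standard errors. The line marks equal values. Points lie along it, with Mcm10, Rrm2, Uhrf1 and Orc1 at the low end and Pold1 and E2f2 at the high end.

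Genes that work beside the 48 moved with them for the most part. Of 33 other fork and origin factors, 23 fell and 2 rose with Neurog3 against control at day 13, and 25 fell and 2 rose with Neurog1 (medians -0.85 and -0.99). Dbf4, which activates the Cdc7 kinase at origins, was at 19.5 ± 4.67 CPM in Neurog3 cells and 21 ± 7.16 CPM in Neurog1 cells, against 174 ± 29.5 CPM in controls (SD, n = 3). On the log2 scale Dbf4 was at -3.16 ± 0.27 (adjusted p = 3.63e-07) with Neurog3 and -3.05 ± 0.27 (adjusted p = 4.41e-07) with Neurog1. Ssrp1, a subunit of the histone chaperone FACT, was at -1.06 ± 0.22 (adjusted p = 0.000728) with Neurog3 and -0.99 ± 0.22 (adjusted p = 0.00116) with Neurog1. The 2 that rose were Mcm9 and Timeless. Mcm9, a helicase used in repair, was at 0.82 ± 0.24 (adjusted p = 0.00932) with Neurog3 and 0.70 ± 0.24 (adjusted p = 0.0213) with Neurog1. Timeless, a fork protection factor, was at 0.70 ± 0.26 (adjusted p = 0.0308) with Neurog3 and 0.88 ± 0.26 (adjusted p = 0.00869) with Neurog1. In other nucleotide supply, 8 of 9 fell with each factor (medians -1.59 with Neurog3 and -1.38 with Neurog1). Rrm2b, the ribonucleotide reductase subunit used outside S phase, was not called and was at -0.32 ± 0.22 (adjusted p = 0.236) with Neurog3 and -0.29 ± 0.22 (adjusted p = 0.27) with Neurog1. All 9 chromatin assembly genes fell with both factors (medians -1.36 and -1.37). Nasp, a histone chaperone, was at -1.36 ± 0.19 (adjusted p = 3.18e-05) with Neurog3 and -1.26 ± 0.19 (adjusted p = 5.68e-05) with Neurog1.

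Among 9 other E2F, DP and pocket protein genes, 6 fell and 3 rose with each factor at day 13 against control. Those that rose were Tfdp2, a DNA-binding partner of E2F, and the pocket proteins Rb1 and Rbl2, which hold E2F factors in check. Tfdp2 was at 2.16 ± 0.28 (adjusted p = 1.22e-05) with Neurog3 and 1.86 ± 0.27 (adjusted p = 4.25e-05) with Neurog1. Rb1 was at 0.69 ± 0.27 (adjusted p = 0.0384) with Neurog3 and 1.01 ± 0.27 (adjusted p = 0.00469) with Neurog1. Rbl2 was at 0.75 ± 0.16 (adjusted p = 0.000874) with Neurog3 and 0.58 ± 0.16 (adjusted p = 0.00487) with Neurog1. E2f4, an E2F that acts with pocket proteins in resting cells, was the 1 gene of the 9 called at day 1. E2f4 averaged 32.5 ± 0.598 CPM in Neurog3 cells and 39.6 ± 4.36 CPM in Neurog1 cells at day 13, 128 ± 14.3 CPM in Neurog3 cells and 158 ± 8.73 CPM in Neurog1 cells at day 1, and 54.4 ± 5.79 CPM in controls. At day 13 it was at -0.74 ± 0.15 (adjusted p = 0.000724) with Neurog3 and -0.46 ± 0.15 (adjusted p = 0.0165) with Neurog1 against control, and at day 1 it was at 1.23 ± 0.15 (adjusted p = 7.05e-05) with Neurog3 and 1.54 ± 0.15 (adjusted p = 1e-05) with Neurog1. E2f4 was thus called higher than control at day 1 and lower at day 13.

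All 6 S-phase kinase and cyclin genes fell with both factors (medians -1.37 and -1.45). Ccna2, the A cyclin of S phase, was at -2.29 ± 0.32 (adjusted p = 2.77e-05) with Neurog3 and -2.25 ± 0.32 (adjusted p = 3.14e-05) with Neurog1. In the list of 10 CDK inhibitors and D cyclins, 2 rose and 4 fell with Neurog3, and 3 rose and 4 fell with Neurog1. Cdkn1b, which encodes p27, rose with both, as did Cdkn2c, which encodes p18. Cdkn1b was at 0.90 ± 0.18 (adjusted p = 0.000453) with Neurog3 and 0.96 ± 0.18 (adjusted p = 0.000279) with Neurog1. Cdkn2c was at 1.31 ± 0.31 (adjusted p = 0.00186) with Neurog3 and 1.06 ± 0.30 (adjusted p = 0.00753) with Neurog1. Cdkn1c was at 0.43 ± 0.26 (adjusted p = 0.171) with Neurog3 and 1.14 ± 0.26 (adjusted p = 0.00171) with Neurog1, called with Neurog1 alone; between the factors it was at -0.71 ± 0.26 (adjusted p = 0.658). Ccnd1, the D cyclin that answers to growth factors, was at 11.6 ± 0.948 CPM in Neurog3 cells and 18.9 ± 1.22 CPM in Neurog1 cells at day 13, against 269 ± 129 CPM in controls. It fell by 4.54 on the log2 scale with Neurog3 and by 3.83 with Neurog1. Cdkn1a, which encodes p21, was at -1.29 ± 0.25 (adjusted p = 0.000445) with Neurog3 and -1.33 ± 0.25 (adjusted p = 0.00034) with Neurog1 at day 13, and at 0.80 ± 0.25 (adjusted p = 0.0423) with Neurog3 and 0.77 ± 0.25 (adjusted p = 0.0539) with Neurog1 at day 1.

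The 12 mitosis markers, which are not replication genes, fell with both factors at day 13 against control, all 12 of 12, with medians of -2.40 and -2.52. Their summed level was 346 to 517 CPM in Neurog3 cells and 251 to 596 CPM in Neurog1 cells at day 13, 2062 to 2459 CPM in Neurog3 cells and 2186 to 2486 CPM in Neurog1 cells at day 1, and 1969 to 2754 CPM in controls. The neuron markers summed to 618 to 781 CPM in Neurog3 cells and 569.6 to 1459 CPM in Neurog1 cells at day 13, 64.4 to 199 CPM in Neurog3 cells and 75.6 to 207 CPM in Neurog1 cells at day 1, and 77.3 to 96.5 CPM in controls. The day 13 libraries were thus low in both cell cycle lists and high in the neuron list, and no day 13 library overlapped day 1 or control in any of the 3.

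**Figure D5:**
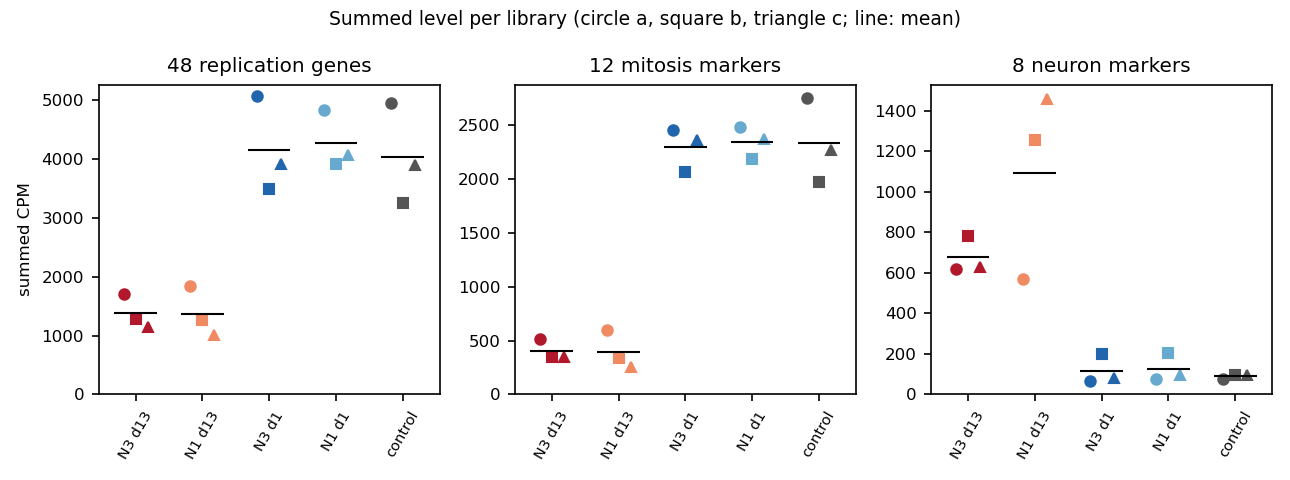
Summed level (CPM) of the 48 replication genes, the 12 mitosis markers and the 8 neuron markers in each library, by group. A circle, a square and a triangle mark libraries a, b and c. Library a is the highest of its group for the replication genes and the lowest for the neuron markers in all 5 groups.

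Libraries with the same letter were alike in part. Library a had the highest summed level of the 48 genes in each group, 1711 CPM in Neurog3 cells and 1841 CPM in Neurog1 cells at day 13, 5068 CPM and 4836 CPM at day 1 for Neurog3 and Neurog1, and 4963 CPM in controls. It was the highest for 38 and 45 of the 48 genes at day 13 (Neurog3, Neurog1), for 33 and 29 at day 1, and for 32 in controls. In Neurog1 cells at day 13, libraries a, b and c had 1841, 1268 and 1017 CPM of the 48 genes and 569.6, 1253 and 1459 CPM of neuron markers. In Neurog3 cells at day 13 they had 1711, 1286 and 1139 CPM of the 48 genes and 618, 781 and 629 CPM of neuron markers. Without library a of the day 13 group, 44 genes were called with Neurog3 and 45 with Neurog1 against control. The macrophage markers summed to 17.8 to 289.8 CPM in Neurog3 cells and 29.7 to 117 CPM in Neurog1 cells at day 13, 35.8 to 38.2 CPM in Neurog3 cells and 56.9 to 79.2 CPM in Neurog1 cells at day 1, and 152 to 238 CPM in controls, and the highest value was that of library a of Neurog3 at day 13. Endothelial markers summed to at most 47.7 CPM in any library, and epithelial markers at most 0.43 CPM at day 13, 97.3 CPM at day 1 and 24.7 CPM in controls. The part of these cell types in the replication genes was not tested.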

How the data were processed

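PolyA RNA of 15 libraries was measured. The deposited table holds raw read counts, 1 column per library, keyed by Ensembl ID. The authors used CASAVA, HISAT2 and featureCounts on mm10, per the submitters' processing notes. No version, annotation or strand setting is stated, so reads of overlapping or antisense genes could not be told apart. Every column was mapped to its library by name.

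GENCODE M21 named 42462 of the 43432 IDs. Counts were tested with edgeR 4.0.16 (limma 3.58.1, R 4.3.3). The 15 libraries were fitted together with 1 mean per group, TMM factors and filterByExpr (16872 genes kept), and the code was checked on simulated counts. P-values were adjusted over all genes in each of 9 contrasts. Fitted log2 values use a prior count of 0.125. Alternatives were library totals, DESeq2 size factors, DESeq2 1.42.0, other filters, a replicate block, fits of the groups compared only, and leaving out each library. Tables and plots were made with pandas 2.3.3 and matplotlib 3.10.9.

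Between the factors at the same day, deviations of same-letter libraries correlated at over 0.1 in every pair, so there the letters were taken to pair libraries. This comes from the counts, not from the labels. Replicates differed beyond counting noise (chi-square per degree of freedom 26.2 to 107). Library totals limit low genes most, such as Fen1 with 70 to 72 counts per group at day 13. Members, lists and tests were chosen with earlier results of these data known. Values in every library are given for members of each role that had the highest mean CPM or the lowest or highest change, for E2F factors and E cyclins, and for members not called or called higher.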

Additional observations from a re-analysis of the deposited data

Results flagged for a closer look

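E2f1 was flagged because its effect against control differed between the days: it was lower at day 13 than at day 1 with both factors. The log2 fold change at day 13 minus that at day 1, against the same controls, was -1.46 with Neurog3 (adjusted p = 1.4e-05) and -1.31 with Neurog1 (adjusted p = 3.01e-05, edgeR quasi-likelihood test), and all 3 day 13 libraries were below all 3 day 1 libraries in each. By the same test, the effect against control differed between day 13 and day 1 for 46 of the 48 genes with Neurog3 and for 46 with Neurog1, E2f1 included, against 55.8% and 57.9% of all genes.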

How the results depend on the processing

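Against control at day 13, leaving out 1 library at a time gave 37 to 44 called genes with Neurog3 and 38 to 45 with Neurog1. Against day 1 it gave 42 to 46 with Neurog3 and 42 to 47 with Neurog1. It gave 1 to 1 for either factor at day 1, and 0 to 0 between the factors at day 1, at day 13 and for their interaction. The replicate letters are not stated to pair libraries. Deviations of same-letter libraries correlated at -0.15 to 0.58, over 0.1 in 15 of 30 pairs, and in every pair only between the factors at the same day. With the replicate block, 45 genes were called with each factor at day 13 against control, 46 with Neurog1 and 47 with Neurog3 against day 1, and 2 with each factor at day 1. At day 1 that fit called 1562 genes higher and 1324 lower of 16872 with Neurog3, and 1485 and 1275 with Neurog1. A block within each day over the 12 infected libraries, added after seeing the data, called 0 of the 48 between the factors, against 4.2%, 0.15% and 0.18% of all genes at day 13, at day 1 and for the interaction. A fit of only the groups compared called 2 with Neurog1 at day 1, against 1024 higher and 1082 lower of all 14635 genes it tested. On library totals Pold1 against control with Neurog1 at day 13 was at 0.16, against -0.12 with TMM, and Rpa2, Lig1, Dnmt1, Rfc3, Pola2 and Pold2 lost calls at day 13. Rfc3 against day 1 with Neurog3 was lost under 5 settings. The share of promoters with an E2F motif was 46.2% in the whole 300-base window (2.6% of all genes) and 43.6% with the last 7 bases of the motif (9.01% of all genes), against 28.2% (2.16% of all genes). The cause of these changes was not tested.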
